A study of Mus musculus with 23 samples.

Results

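Chromatin modifying enzymes and remodellers were examined in 23 mouse mammary carcinomas, of which 12 had been treated with abemaciclib and 11 with vehicle (Control). Members were the genes of a targeted RNA panel whose symbols begin with the family names of histone deacetylases and sirtuins (Hdac, Sirt), acetyltransferases (Kat), lysine methyltransferases and demethylases (Kmt, Setd, Kdm), arginine methyltransferases (Prmt), DNA methyltransferases (Dnmt), bromodomain and chromobox proteins (Brd, Cbx), Polycomb repressive complex 2 (Ezh, Suz12, Eed) and chromatin remodellers (Smarc, Arid, Chd). Dnmt1 and Ezh2 were left out by the rule. This gave 72 members of the panel's 3826 genes. The rule uses symbols alone.

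Both groups carried doxycycline-induced tumours, with induction at an age of 6 weeks, and treatment began in established tumours after randomization. The abemaciclib group received 90 mg/kg by gavage each day, the Control group received vehicle, and tissue was frozen after the 12th dose. The labels name no strain, transgene or promoter behind the tumours, and tumours are numbered without naming an animal, so a p-value measures the spread between tumours, some of which may share an animal. The measurement was amplicon sequencing of bulk tumour RNA with 1 short amplicon per gene, so levels are compared between tumours and not between genes. Levels are reported as CPM, the read count scaled to a common total. For this, the library total of each tumour was first multiplied by a scaling factor of that tumour (TMM).

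Chromatin enzymes place, remove and read chemical marks on histones and DNA, and remodellers slide or evict nucleosomes with the energy of ATP. Acetyltransferases and bromodomain proteins are associated with open chromatin, histone deacetylases and HP1 proteins with closed chromatin, and Polycomb complexes keep developmental genes silent. Abemaciclib inhibits the kinases CDK4 and CDK6, which phosphorylate the retinoblastoma protein. The unphosphorylated protein holds E2F factors inactive, in part by bringing histone deacetylases and remodellers to E2F target genes, and replicating cells need enzymes that copy chromatin marks onto new DNA.

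Total counts were 2756919 to 4990391 per tumour with abemaciclib and 3044380 to 4492736 in Control, and 2925 genes passed the filter on low counts. Of the members, 67 of 72 passed it. The other 5 had few counts in any tumour. Cbx2, a Polycomb chromobox protein, had 0 in all abemaciclib tumours and 0 to 4 in Control. Dnmt3l, a cofactor of DNA methyltransferases, had 0 to 1 with abemaciclib and 0 to 2 in Control. Sirt2, a deacetylase of the cytoplasm, had 0 to 8 with abemaciclib and 1 to 5 in Control, and the ISWI remodeller Smarca1 had 1 to 12 with abemaciclib and 0 to 17 in Control. The Y-linked demethylase Kdm5d had 0 in all 23 tumours. The members together took 0.963% ± 0.152 of the counts with abemaciclib (SD, n = 12) and 1.13% ± 0.224 in Control (SD, n = 11). In bulk tissue, fewer cells of a type and less RNA per cell cannot be told apart. Markers of luminal mammary epithelium were detected in every tumour, with 9 of them summing to 5200 to 11700 CPM with abemaciclib and 5880 to 8490 CPM in Control. Markers of macrophages summed to 994 to 1870 CPM with abemaciclib and 673 to 1120 CPM in Control, with a positive fold change for 6 of 6 tested. Markers of fibroblasts summed to 1350 to 19100 CPM with abemaciclib and 2830 to 7410 CPM in Control. For T cells the sums were 19.7 to 102 CPM with abemaciclib and 16.9 to 72.9 CPM in Control. For endothelium they were 201 to 469 CPM with abemaciclib and 203 to 398 CPM in Control, and for basal epithelium 555 to 12800 CPM with abemaciclib and 818 to 5160 CPM in Control. Neutrophil markers summed to 51.3 to 132 CPM with abemaciclib and 42.1 to 117 CPM in Control. Adipocyte markers summed to 13.2 to 117 CPM with abemaciclib and 11.8 to 202 CPM in Control, and B cell markers to 0.192 to 3.44 CPM with abemaciclib and 0 to 1.63 CPM in Control. No marker on the panel was at 0 in every tumour. Abemaciclib tumours 3 and 10 stood apart on the third principal component, which held 8.91% of the variance, with scores of 18.1 and 18.8 against -3.36 to 8.40 in the other abemaciclib tumours and -14.2 to 3.76 in Control. The main counts are also given without them.

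The first comparison asked whether treatment changed the level of these enzymes. None of the 67 tested members passed. The largest differences were lower values of Setdb2, Cbx5, Prmt1 and Hdac1 and a higher value of Hdac11. The 95% confidence intervals were wide for some members, such as Hdac9 (-0.44 to 0.95) and Dnmt3b (-0.96 to 0.34). By edgeR's quasi-likelihood test with Benjamini-Hochberg adjustment over all genes, 0 members were higher and 0 lower, where 0 of all 2925 genes were called in each direction (0%). Of the 22 mitotic genes scored below, all were negative (median -1.04) and 21 had an unadjusted p under 0.05, yet 0 were called. An absence of calls in this test therefore does not show that a level was unchanged. At an unadjusted p under 0.05, 0 members were higher against 222 of all genes (7.59%), and 6 members were lower (8.96%) against 170 of all genes (5.81%). DESeq2 called 0 members in either direction while calling 47 of all genes higher (1.61%) and 13 lower (0.444%), with 1 member higher against 8.58% of all genes, and 5 lower against 5.61%, at an unadjusted p under 0.05. Limma-voom also called 0 members, while calling 57 of all genes higher (1.95%) and 70 lower (2.39%), with 1 member higher against 8.96% of all genes, and 9 lower (13.4%) against 8.82%, before adjustment. The groups overlapped for every member, and for every tested gene. In 52 of 67 members the log2 fold change was negative (77.6%), as it was in 1429 of all 2925 genes (48.9%). The median was -0.055 over the members, which ranged from -0.54 to 0.42, and 0.0055 over all genes. Scaling to library totals alone made 64 of 67 members and 71.2% of all genes negative and moved the median of all genes to -0.12. The count of negative members was 45 of 67 with limma-voom (51.2% of all genes), 45 without Control tumour 1 (48.0%), 47 with a macrophage score in the fit (48.5%) and 41 with the proliferation score in it (49.5%). Macrophage markers differed between the groups, and with their score in the fit members moved both ways. Cbx5 was at -0.080, Hdac1 at -0.15, Prmt1 at -0.20, Cbx3 at -0.15, Smarcb1 at -0.013, Suz12 at -0.12 and Hdac11 at 0.23. These differences were smaller, while Setdb2 was at -0.49. Others grew: Kat6b went from -0.18 to -0.48, Arid1a from -0.11 to -0.30 and Brd2 from -0.091 to -0.23. The macrophage score ran from -0.0921 to 0.754 with abemaciclib and from -0.562 to 0.116 in Control. It is thus in part the same quantity as the treatment, and the SE of Cbx5 widened from 0.161 to 0.203. The part of macrophages in these values was not tested.

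**Figure D1:**
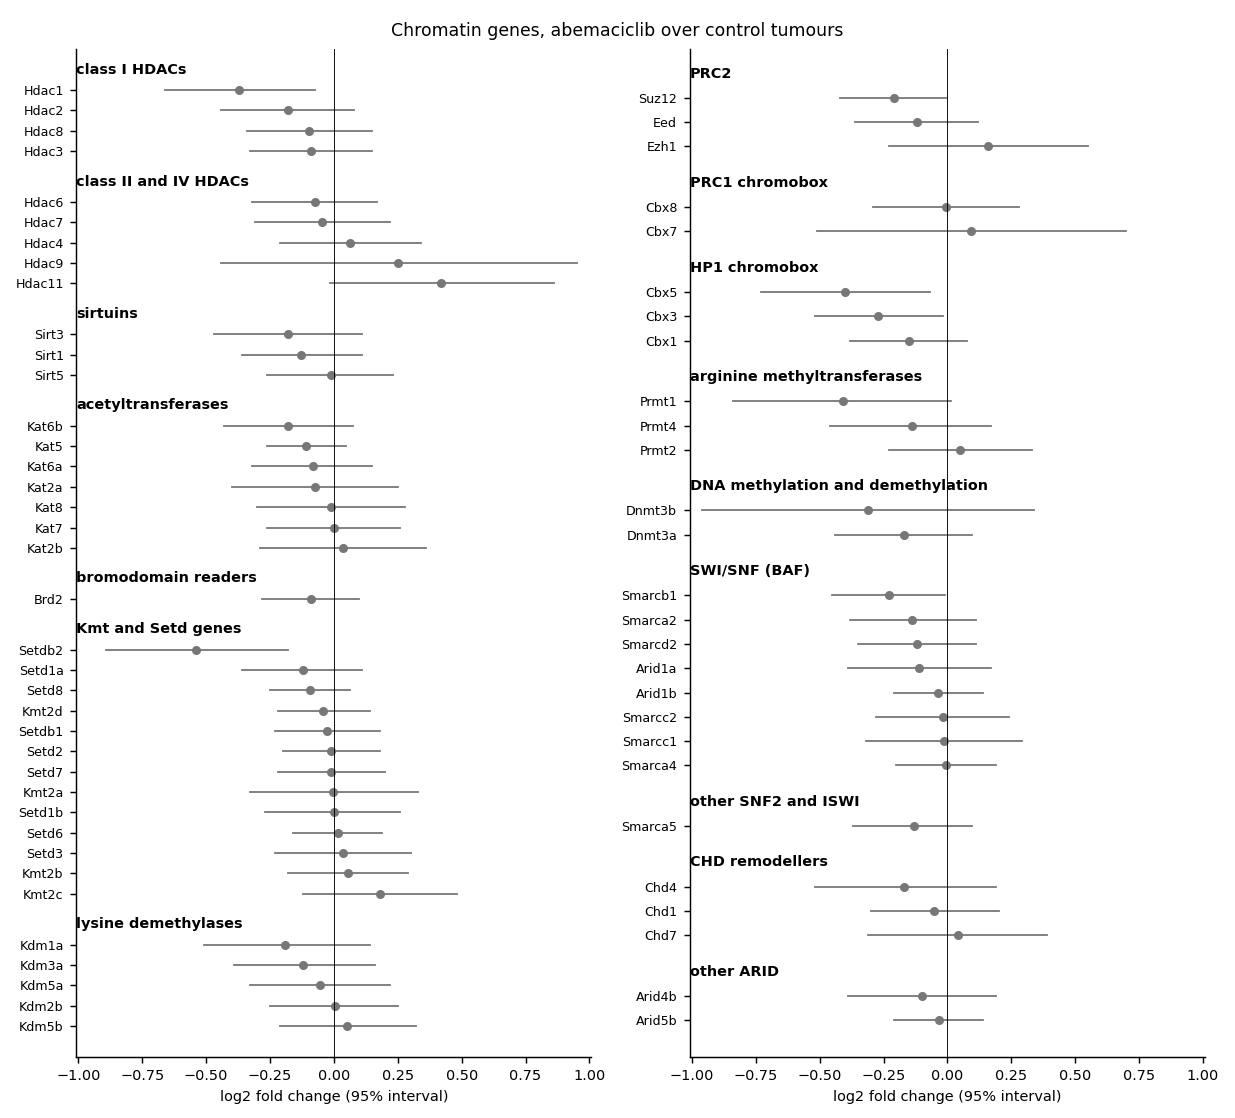
Log2 fold change of abemaciclib over Control for 65 of the 67 tested members, with 95% confidence intervals, by functional family. Values run from -0.54 for Setdb2 to 0.42 for Hdac11, and no member drawn has an adjusted p under 0.05.

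Setdb2, which belongs to a family of histone H3 lysine 9 methyltransferases, had 6.01 to 12.7 CPM with abemaciclib, median 7.80, against 7.99 to 17.5 CPM in Control, median 12.7. All 12 abemaciclib tumours were below the Control median, and 6 were below the lowest Control tumour. The log2 fold change was -0.54 (SE 0.173, 95% confidence interval -0.89 to -0.18, adjusted p = 0.146), and it rests on 17 to 54 counts per abemaciclib tumour and 31 to 64 per Control tumour. Of the 67 members it had the smallest p.

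Cbx5 and Cbx3 encode HP1 alpha and HP1 gamma, which bind methylated lysine 9 of histone H3. Cbx5 had 36.2 to 83.6 CPM with abemaciclib, median 49.3, against 54.5 to 103 CPM in Control, median 79.2. There, 10 of 12 abemaciclib tumours were below the Control median and 7 below the lowest Control tumour. Its log2 fold change was -0.40 (SE 0.161, interval -0.73 to -0.067, adjusted p = 0.245). Cbx3 had 240 to 512 CPM with abemaciclib, median 334, against 317 to 568 CPM in Control, median 397, and 9 of 12 treated tumours were below the Control median. Its log2 fold change was -0.27 (SE 0.123, adjusted p = 0.320). The remaining HP1 gene, Cbx1, ranged from 205 to 345 CPM with abemaciclib and from 215 to 428 CPM in Control, with a log2 fold change of -0.15. All 3 HP1 genes were negative, with 0 called.

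Among deacetylases, the 4 class I genes were all negative, with 0 called. Hdac1, a catalytic subunit of the NuRD and Sin3 repressor complexes, had 215 to 392 CPM with abemaciclib, median 261, against 265 to 710 CPM in Control, median 332. The top of the Control range was 1 tumour, Control tumour 8, and 9 of 12 abemaciclib tumours were below the Control median. The log2 fold change was -0.37 (SE 0.142, adjusted p = 0.219), and -0.23 without Control tumour 8. Hdac2, its partner in these complexes, had 59.6 to 132 CPM with abemaciclib against 75.9 to 130 CPM in Control, and its log2 fold change of -0.18 (SE 0.126) had an adjusted p of 0.565. Hdac3, the catalytic subunit of the NCoR corepressor complex, was at -0.088 (SE 0.115). Hdac11, the sole class IV deacetylase, had 13.3 to 51.9 CPM with abemaciclib, median 29.5, against 11.9 to 38.7 CPM in Control, median 22.0. Only 3 of 12 abemaciclib tumours were below the Control median, and the log2 fold change was 0.42 (SE 0.213, interval -0.015 to 0.86, adjusted p = 0.398). The class IIa genes Hdac9, with 4 to 33 counts with abemaciclib against 5 to 16 in Control, and Hdac4 had log2 fold changes of 0.25 (SE 0.338) and 0.064 (SE 0.133). Sirt1, a nuclear deacetylase that uses NAD, was at -0.13 (SE 0.115), one of 3 tested sirtuins that were all negative.

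Prmt1, the main enzyme of asymmetric arginine dimethylation, had 203 to 561 CPM with abemaciclib, median 317, against 253 to 925 CPM in Control, median 363. Here too Control tumour 8 set the top of the range, and 9 of 12 abemaciclib tumours were below the Control median. The log2 fold change was -0.41 (SE 0.208, adjusted p = 0.398) and -0.27 without Control tumour 8. Prmt2, a related coactivator, was at 0.051 (SE 0.135). Dnmt3a and Dnmt3b, the enzymes of new DNA methylation, had log2 fold changes of -0.17 (SE 0.131) and -0.31 (SE 0.316). Dnmt3b was low and variable, with 5.14 to 18.8 CPM with abemaciclib against 4.04 to 24.3 CPM in Control.

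In Polycomb repressive complex 2, which methylates lysine 27 of histone H3, the core subunit Suz12 had 69.2 to 117 CPM with abemaciclib, median 104, against 92.2 to 155 CPM in Control, median 111. Suz12 was below the Control median in 9 of 12 treated tumours, and its difference was -0.21 on the log2 scale (SE 0.100, adjusted p = 0.357). The scaffold subunit Eed was at -0.12 (SE 0.117). Ezh1, a catalytic subunit typical of cells that do not divide, was at 0.16 (SE 0.188), with 71.7 to 192 CPM with abemaciclib against 67.0 to 157 CPM in Control. Cbx7, which reads the same mark in Polycomb complex 1, was at 0.094 (SE 0.294). The directions within Polycomb were mixed.

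SWI/SNF (BAF) remodellers gave 8 of 8 negative log2 fold changes, from -0.23 to -0.0065, with 0 called, though Smarca4 turned to 0.0011 under another scaling (RLE). The core subunit Smarcb1 had 66.6 to 121 CPM with abemaciclib, median 86.8, against 90.9 to 138 CPM in Control, median 99.5. There, 9 of 12 treated tumours were below the Control median, and the log2 fold change was -0.23 (SE 0.106, adjusted p = 0.339). The ATPase Smarca4 was at -0.0065 (SE 0.0961, interval -0.20 to 0.19), the alternative ATPase Smarca2 at -0.14 (SE 0.120), and the DNA-binding subunit Arid1a at -0.11 (SE 0.138). Chd4, the ATPase of NuRD, was at -0.17 (SE 0.173), and the other remodellers gave values between -0.13 and 0.041.

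The remaining writers, erasers and readers had log2 fold changes of -0.19 to 0.18. Genes of the Kmt and Setd families, most of them lysine methyltransferases, were negative in 9 of 13, a count that includes Setdb2 described above. The highest was Kmt2c, an enhancer H3K4 methyltransferase, at 0.18 (SE 0.147), with 63.3 to 131 CPM with abemaciclib against 37.5 to 109 CPM in Control. Its relatives Kmt2a, Kmt2b and Kmt2d were at -0.0040 (SE 0.160), 0.057 (SE 0.115) and -0.042 (SE 0.0883). Setd2, which trimethylates lysine 36 of histone H3, was at -0.012 (SE 0.0913), and Setd3, a histidine methyltransferase of actin, at 0.035 (SE 0.130). Acetyltransferases were negative in 5 of 7, with Kat6b at -0.18 (SE 0.123), Kat5 (TIP60) at -0.11 (SE 0.0743), Kat2a (GCN5) at -0.075 (SE 0.159) and Kat2b (PCAF) at 0.036 (SE 0.159). The acetyl-lysine reader Brd2 was at -0.091 (SE 0.0923). Among demethylases, Kdm1a (LSD1) was at -0.19 (SE 0.158), the H3K4 demethylase Kdm5b at 0.053 (SE 0.130) and Kdm2b, which brings a Polycomb complex to CpG islands, at 0.0025 (SE 0.121). For the genes given a log2 fold change by name here, the adjusted p lay between 0.565 and 0.995.

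**Figure D2:**
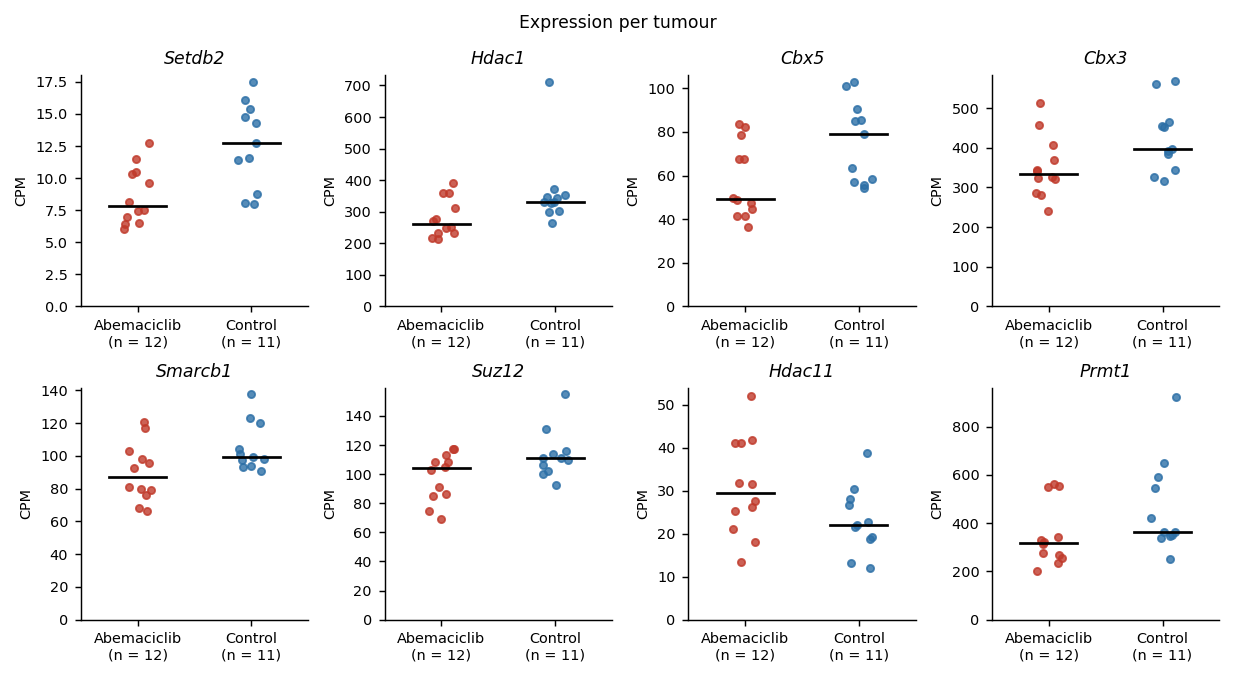
CPM of 8 members in each tumour, abemaciclib left of Control, with the group median as a line. Setdb2 values lie at 6.01 to 12.7 CPM with abemaciclib and 7.99 to 17.5 CPM in Control, and in all 8 panels the groups overlap.

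Members varied between tumours of 1 group. On the log2 CPM scale the SD of a member between abemaciclib tumours was 0.118 for Setd6 (a lysine methyltransferase of the NF-kappaB subunit RelA) to 0.820 for Hdac9, median 0.305, and between Control tumours 0.118 for Setd6 to 0.915 for Dnmt3b, median 0.271. The second question was whether this variation ran with how much a tumour proliferated. Proliferation was scored as the mean centred log2 CPM of 22 mitotic genes such as Mki67, Top2a and Bub1b, none of them a member. The score averaged -0.680 ± 1.22 with abemaciclib (SD, n = 12, -2.30 to 1.39) and 0.742 ± 0.600 in Control (SD, n = 11, -0.392 to 1.88), and 10 of 12 abemaciclib tumours were below the Control median. Each gene was then fitted by edgeR with group and score together, so that a slope is the log2 change per unit of score among tumours of the same group.

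Of the 67 members, 25 passed, in both directions. Prmt1, the HP1 genes Cbx5 and Cbx3 (but not Cbx1), Hdac1 and Hdac2, Dnmt3a and Dnmt3b, Kdm1a and the BAF subunits Smarcc1 and Smarcb1 rose with proliferation. Hdac11, the Polycomb genes Cbx7, Ezh1 and Kdm2b, the BAF subunit Smarcd2, Kat2b, Sirt1 and 5 genes of the Kmt and Setd families fell with it. At an adjusted p under 0.05 there were 13 positive members (19.4%), where 503 of all 2903 genes were positive (17.3%), and 12 negative members (17.9%), where 427 of all genes were negative (14.7%). These shares are near those of the whole panel. Without abemaciclib tumours 3 and 10 the members called were 12 positive and 7 negative, with 12.4% and 10.4% of all genes. Scaling to library totals alone gave 30 positive and 2 negative members, with 1175 positive (40.5%) and 162 negative (5.58%) of all genes, and it moved the median slope of all genes to 0.12. The negative members called in it were Hdac11 and Cbx7. The scaling factor itself ran with the score, with r of 0.898 over abemaciclib tumours and 0.869 over Control tumours. It was 0.805 and 0.833 in abemaciclib tumours 1 and 7, which had the lowest scores, and 1.26 in Control tumour 8, which had the highest. Its part in the slopes was not tested.

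**Figure D3:**
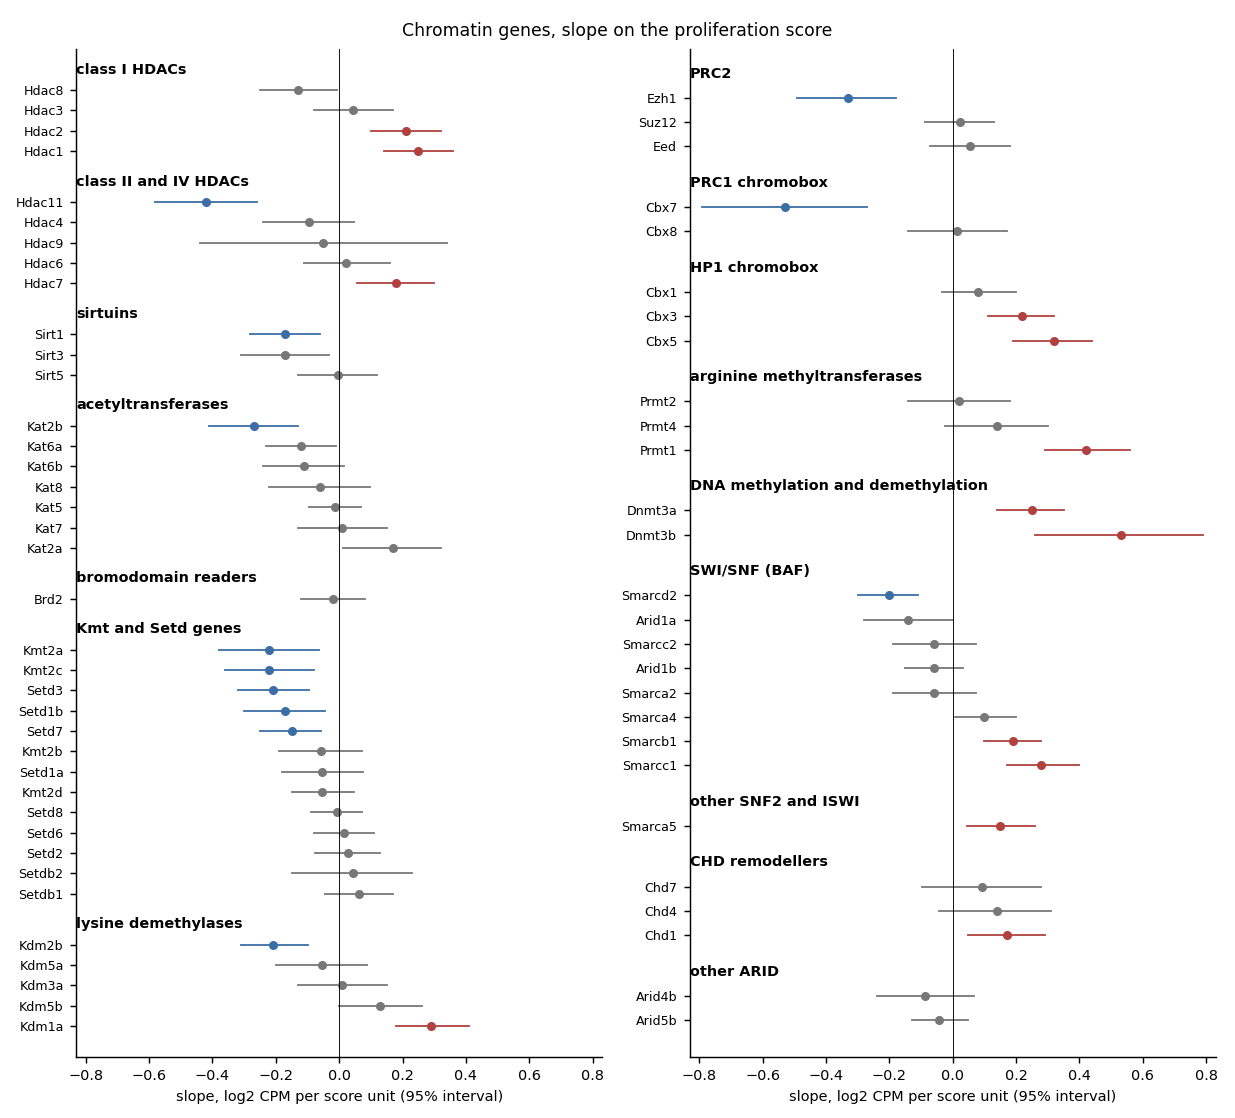
Slope of 65 of the 67 tested members on the proliferation score, in log2 units per unit of score with 95% confidence intervals, from a fit with group as a term. Red marks the 13 positive and blue the 12 negative members at an adjusted p under 0.05, with Dnmt3b at 0.53 and Cbx7 at -0.53 as the ends of the range.

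Among the positive members, Prmt1 had the smallest p, with a slope of 0.42 (SE 0.0673, adjusted p = 3.03e-05), and was at 561, 552 and 553 CPM in abemaciclib tumours 2, 3 and 10, which had the highest scores of their group. The HP1 genes Cbx5 and Cbx3 had slopes of 0.32 (SE 0.0598, adjusted p = 2.31e-04) and 0.22 (SE 0.0499, adjusted p = 0.00165), with Cbx1 at 0.081 and not called. The deacetylases Hdac1 and Hdac2 had slopes of 0.25 (SE 0.0534, adjusted p = 7.60e-04) and 0.21 (SE 0.0532, adjusted p = 0.00338). Kdm1a, a demethylase that works with Hdac1 and Hdac2 in the CoREST complex, had a slope of 0.29 (SE 0.0579, adjusted p = 3.58e-04). Dnmt3a had a slope of 0.25 (SE 0.0511, adjusted p = 5.78e-04) and Dnmt3b the steepest, at 0.53 (SE 0.127, adjusted p = 0.00244). Dnmt1, which is not a member, had a slope of 0.10 (SE 0.0521, adjusted p = 0.128) and was not called. In SWI/SNF, the scaffold subunit Smarcc1 had a slope of 0.28 (SE 0.0554, adjusted p = 3.23e-04) and Smarcb1 of 0.19 (SE 0.0423, adjusted p = 0.00109). Slopes of 0.15 to 0.18 were called for Hdac7 (a class IIa deacetylase), Smarca5 (the ISWI ATPase) and Chd1 (a remodeller that reads methylated H3K4).

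Hdac11 led the negative members, with a slope of -0.42 (SE 0.0790, adjusted p = 2.07e-04). Then 3 Polycomb genes fell with the score, from different complexes: Cbx7 with a slope of -0.53 (SE 0.125, adjusted p = 0.00197), Ezh1 with -0.33 (SE 0.0760, adjusted p = 0.00146) and Kdm2b with -0.21 (SE 0.0510, adjusted p = 0.00259). Suz12 and Eed, at 0.022 (SE 0.0526) and 0.055 (SE 0.0612), were not called, nor was Cbx8, another chromobox gene of Polycomb complex 1. Ezh2, which is not a member and is the catalytic subunit of dividing cells, had a slope of 0.27 (SE 0.0603, adjusted p = 0.00119), opposite in sign to Ezh1. Smarcd2 had a slope of -0.20 (SE 0.0450, adjusted p = 0.00113), so that SWI/SNF subunits were called in both directions. Among acetyltransferases, Kat2b was called at -0.27 (SE 0.0675, adjusted p = 0.00348), while the slope of its paralogue Kat2a was 0.17 (SE 0.0752, adjusted p = 0.0950). Of 13 Kmt and Setd genes 5 fell, where 14.7% of all genes did, and 0 rose, where 17.3% of all genes did. Those that fell were Setd3 at -0.21, Setd7 at -0.15, Kmt2c at -0.22, Kmt2a at -0.22 and Setd1b at -0.17. With library totals alone none of these 5 was called, and 4 others (Setd2, Setd6, Setd8 and Setdb1) were called positive. Without abemaciclib tumours 3 and 10 only Setd3 of these 5 stayed called. With scores of luminal, macrophage and fibroblast markers in the fit only Setd3 and Setd7 did. With the replicate number as a block, fitted without abemaciclib tumour 12, none did. Setd7 is a monomethyltransferase, and Kmt2a, Kmt2c and Setd1b belong to the COMPASS family that methylates H3K4. Sirt1 fell with a slope of -0.17 (SE 0.0518, adjusted p = 0.0136), and Sirt3, a mitochondrial deacetylase, had the same slope just outside the threshold (adjusted p = 0.0527).

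The other 42 tested members were not called. Brd2 had a slope of -0.019 (SE 0.0488). Setdb2, the member with the smallest p between the groups, had a slope of 0.044 (SE 0.0929). Smarca4, Smarca2, Arid1a and Chd4 had slopes of 0.10, -0.058, -0.14 and 0.14. Hdac3, Kdm5b, Kmt2d and Setd2 had slopes of 0.045, 0.13, -0.053 and 0.028.

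**Figure D4:**
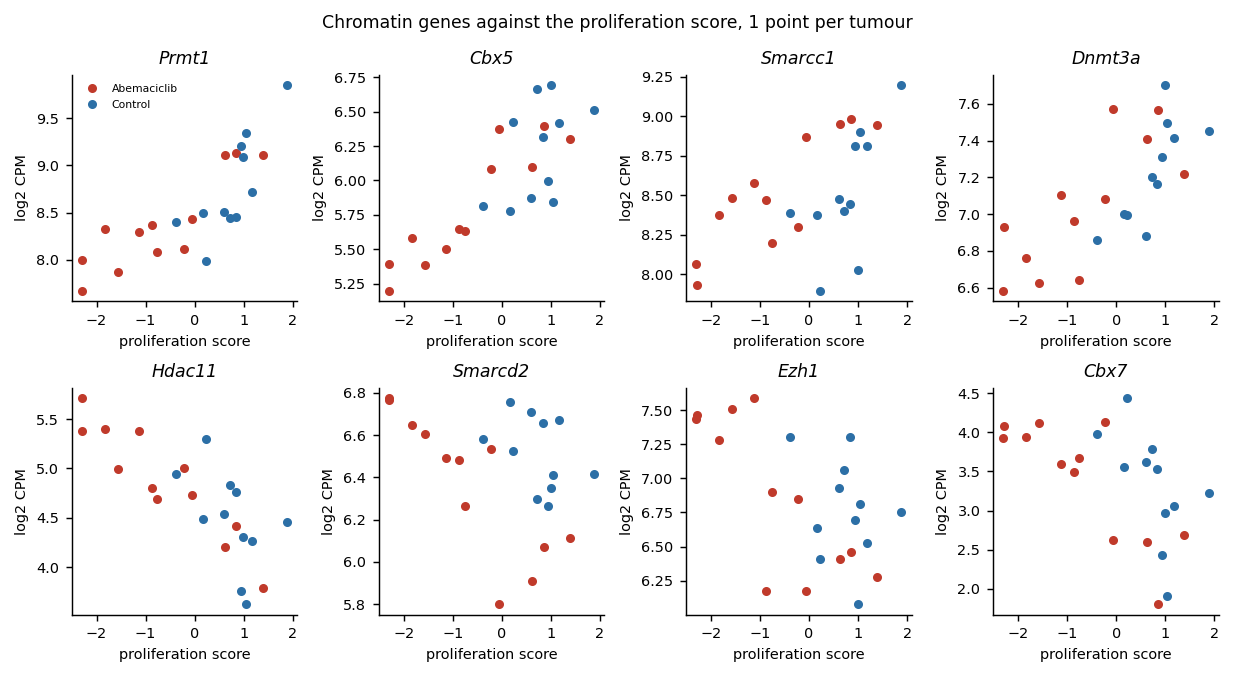
Log2 CPM of 8 members against the proliferation score, 1 point per tumour, with abemaciclib and Control in different colours. In the fit with group as a term, Prmt1, Cbx5, Smarcc1 and Dnmt3a rise with the score and Hdac11, Smarcd2, Ezh1 and Cbx7 fall with it. Within Control alone, Pearson's r did not pass for Cbx5, Hdac11, Smarcd2, Ezh1 and Cbx7. The abemaciclib tumours span -2.30 to 1.39 and the Control tumours -0.392 to 1.88.

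Correlations within each group were computed for the 6 members with the smallest p in each direction, which makes 24 relations over 12 or 11 tumours, with permutation tests of 100000 resamples and Benjamini-Hochberg adjustment over the 24. Pearson's r passed in 18 and Spearman's rho in 19. All that did not pass were in Control. There, Pearson's r did not pass for Cbx5, Hdac11, Smarcd2, Ezh1, Cbx7 and Kat2b, nor Spearman's rho for Cbx5, Hdac1, Smarcd2, Ezh1 and Kat2b. Because these members were picked by their slope over the same tumours, the values describe each group and are no further evidence. For Prmt1, r was 0.876 and rho 0.839 with abemaciclib (permutation p = 2.80e-04 and 0.00111, adjusted 0.00224 and 0.00444) and 0.789 and 0.818 in Control (p = 0.00378 and 0.00327, adjusted 0.00825 and 0.00973). For Hdac11, r was -0.922 and rho -0.895 with abemaciclib (permutation p = 5.00e-05 and 2.30e-04, adjusted 6.00e-04 and 0.00184) and -0.510 and -0.727 in Control (p = 0.106 and 0.0144, adjusted 0.121 and 0.0234). For Cbx5, r was 0.915 and rho 0.909 with abemaciclib (permutation p = 5.00e-05 and 1.60e-04, adjusted 6.00e-04 and 0.00184) and 0.486 and 0.482 in Control (p = 0.130 and 0.136, adjusted 0.142 and 0.148). Leaving out the 2 tumours of each group farthest from its median score kept the sign of r in 23 of 24. The exception was Ezh1 in Control, where r was -0.275 and became 0.0124. Without those tumours r was 0.768 and 0.717 for Prmt1, -0.873 and -0.641 for Hdac11, and 0.881 and 0.239 for Cbx5, with abemaciclib and in Control.

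Fitted within abemaciclib tumours, 11 members were positive (16.4%) and 11 negative (16.4%), where 461 (15.9%) and 373 (12.8%) of all genes were called. Within Control tumours, whose scores spanned less, 4 members were positive (5.97%) and 0 negative, where 139 (4.79%) and 74 (2.55%) of all genes were called. The 4 were Dnmt3b, Prmt1, Hdac1 and Smarcc1, with slopes of 1.20, 0.70, 0.45 and 0.42. The difference of the slopes, abemaciclib minus Control, was called for 0 members and 0 of all genes (0%) by edgeR. At an unadjusted p under 0.05, 0 members had a positive difference against 126 of all genes (4.34%), and 3 had a negative one (4.48%) against 145 (4.99%). Those were Dnmt3b at -0.80 (95% confidence interval -1.46 to -0.14), Prmt1 at -0.35 (interval -0.67 to -0.018) and Kat6b at -0.31.

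Beside the score, the marker lists moved as follows. For luminal markers 2 of 8 tested were called positive and 3 negative on the score, for basal epithelium 3 of 5 positive and 1 negative, for macrophages 1 of 6 negative, for endothelium 1 of 5 negative, for T cells 1 of 5 positive and for fibroblasts 0 of 6. Adding scores of luminal, macrophage and fibroblast markers to the fit, an alternative chosen after seeing the data, left 12 positive and 9 negative members, with 482 positive (16.6%) and 404 negative (13.9%) of all 2903 genes. The 12 members examined by correlation were all called in it, with a slope of 0.35 for Prmt1 and -0.41 for Hdac11.

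Entering the score as a covariate asks how the groups differ at equal proliferation. In that edgeR fit 1 member, Smarcd2, was lower with abemaciclib, at a log2 fold change of -0.43 (adjusted p = 0.0215), and 0 were higher, where 51 of all 2925 genes were lower (1.74%) and 113 higher (3.86%). Smarcd2 had 55.2 to 109 CPM with abemaciclib, median 89.1, against 76.5 to 108 CPM in Control, median 91.6, and without the covariate its difference was -0.12 (SE 0.113, adjusted p = 0.684), which lay below 0 in every alternative run. The values of Cbx5, Cbx3 and Hdac1 at equal score were 0.011, 0.031 and -0.0060. Prmt1 was at 0.18, Hdac11 at -0.23 and Ezh1 at -0.37. Setdb2 was at -0.48 (adjusted p = 0.195), near its value without the covariate. As the score itself differed between the groups, the covariate and the treatment are in part the same quantity.

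Promoters were read for the members that moved together, to show what letters stand before them. RefSeq promoter windows of 250 bases before to 50 after the gene start (GRCm38.p6) matched 60 of 72 members. Shown are windows of 2 members that rose with the score, Prmt1 (chr7:44986371-44986670, minus strand) and Cbx3 (chr6:51470366-51470665, plus strand), and of 2 that fell, Hdac11 (chr6:91156565-91156864, plus strand) and Cbx7 (chr15:79932597-79932896, minus strand). Capitals mark a match, on either strand, to the core letters of the E2F motif in Prmt1 and Cbx3 and of the cell-cycle homology region (CHR) in Cbx7. The Hdac11 window held neither, nor did the other window of Cbx3. Among other members that rose, the windows of Cbx5, Smarcc1, Kdm1a, Dnmt3a and Hdac2 held no E2F core. Dnmt3b, which also rose, had a CHR and no E2F core.
Prmt1: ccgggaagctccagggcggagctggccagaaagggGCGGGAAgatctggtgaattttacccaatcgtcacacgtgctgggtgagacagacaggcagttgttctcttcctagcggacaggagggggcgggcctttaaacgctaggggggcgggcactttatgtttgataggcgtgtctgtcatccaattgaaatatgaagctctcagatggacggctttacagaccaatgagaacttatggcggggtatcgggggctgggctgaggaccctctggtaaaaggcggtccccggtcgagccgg
Cbx3: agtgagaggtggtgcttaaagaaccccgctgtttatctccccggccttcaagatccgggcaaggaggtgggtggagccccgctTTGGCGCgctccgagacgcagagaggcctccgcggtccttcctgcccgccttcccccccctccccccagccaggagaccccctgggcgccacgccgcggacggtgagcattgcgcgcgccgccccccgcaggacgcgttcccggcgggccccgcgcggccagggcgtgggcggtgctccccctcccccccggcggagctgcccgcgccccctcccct
Hdac11: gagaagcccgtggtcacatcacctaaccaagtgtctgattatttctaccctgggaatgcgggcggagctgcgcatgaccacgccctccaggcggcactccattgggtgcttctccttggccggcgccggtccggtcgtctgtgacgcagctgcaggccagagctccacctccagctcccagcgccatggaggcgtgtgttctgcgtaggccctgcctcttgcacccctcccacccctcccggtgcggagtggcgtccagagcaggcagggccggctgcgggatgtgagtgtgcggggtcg
Cbx7: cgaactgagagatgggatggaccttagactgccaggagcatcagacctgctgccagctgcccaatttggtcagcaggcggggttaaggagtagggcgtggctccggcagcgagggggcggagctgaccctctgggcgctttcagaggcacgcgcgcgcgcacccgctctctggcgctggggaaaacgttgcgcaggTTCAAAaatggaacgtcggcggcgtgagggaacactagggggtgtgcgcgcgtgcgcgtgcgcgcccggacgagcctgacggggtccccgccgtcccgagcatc

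For the E2F core, the first form searched was TTCCCGC, the next was TTCGCGC, a further form was TTGCCGC and the last was TTGGCGC. For the CHR, the common form is TTTGAA and the other form searched was TTCGAA. Both strands were read, and no motif is contained in another. An E2F core lay in a window of 3 of 11 matched members with a positive slope (27.3%), 0 of 11 with a negative slope and 7 of 34 that were not called (20.6%). Over all panel genes with a window the share was 533 of 2942 (18.1%), and over all genes with a RefSeq window it was 2936 of 27025 (10.9%). A CHR lay in 1 of 11 positive (9.1%), 2 of 11 negative (18.2%) and 9 of 34 uncalled members (26.5%), and in 496 of 2942 panel genes (16.9%). Of the mitotic genes behind the score, 11 of 17 with a window held a CHR (64.7%). A match is a run of letters and not a bound site, and these counts were not tested.

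Some members share sequence with transcripts of other genes, and whether those genes lie at the same locus was not checked. At an identity of at least 95% over at least 100 bases, such transcripts covered 71.1% of the Hdac1 transcript, 64.8% of Setd3 and 54.4% of Setd1a. They covered 53.3% of Kat2b, 53.2% of Smarca5, 43.0% of Sirt5, 34.9% of Sirt3 and 33.2% of Cbx3. Amplicon positions were not used here, so reads of these genes may be shared with another gene, and their values are uncertain to that extent.

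Of other chromatin genes on the panel that are not members, taken from a fixed list, 48 of 51 were tested. Between the groups 0 were called, and 39 had a negative and 9 a positive log2 fold change, median -0.078, where 48.9% of all genes were negative. Suv39h1, an H3K9 methyltransferase, was at -0.39 (SE 0.187), and the Polycomb ring protein partner Bmi1 at 0.18 (SE 0.0810). On the score, 7 were positive and 6 negative, where 17.3% and 14.7% of all genes were. The steepest were Suv39h1 at 0.34 and the nuclear receptor coactivator Ncoa1 at -0.41, with Hat1, the acetyltransferase of newly made histone H4, at 0.32 and the Polycomb genes Phc2 and Phc3 at 0.27 and -0.31.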

How the data were processed

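RNA of 23 tumours (12 abemaciclib, 11 Control) was measured with a custom Ion AmpliSeq panel, per the labels' protocols. The authors deposited raw counts per gene in 1 table, with no normalization. The submitters' processing notes name mm10 as the genome build. The aligner and the counting program are not given in the labels or notes used here. Groups came from the sample titles. The members and lists were chosen with earlier results of these data known.

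In R 4.3.3, edgeR 4.0.16 kept 2925 genes with filterByExpr (minimum count 10, 901 set aside), scaled with TMM and tested two-sidedly by quasi-likelihood (glmQLFit, glmQLFTest). P-values were adjusted over all genes by the Benjamini-Hochberg method, with a threshold of 0.05. The biological coefficient of variation was 32.6%. Log2 CPM used a prior count of 2. The 22 score genes were left out of the slope tests, which left 2903. Named are the 10 members with the smallest p in each direction between groups, the 6 in each direction on the score, members called in any planned setting, and a fixed set. That set also holds Tet1, Tet2, Tet3, Brd3, Kdm6a, Kdm6b and Prmt5, which are not analysed here. Of the tested members, 2 enter every count but are not reported singly or drawn here. Other named genes were chosen after their values were seen. Prmt4 and Setd8 are older symbols of Carm1 and Kmt5a. Scripts were tested on simulated data. Reads have no molecular identifiers, and PCR copies are counted. Alternatives were other size factors, library totals, other filters, DESeq2 1.42.0, voom in limma 3.58.1, covariates, Mki67 as the score, the replicate number as a block, and leaving out tumours. Positions and promoters came from GENCODE M21 and RefSeq (GRCm38).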

Additional observations from a re-analysis of the deposited data

How the results depend on the processing

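Between the groups, 0 members were called higher in every alternative run, and 0 lower in all but the fit with the proliferation score, which called 1. Over all genes the counts of 0 higher and 0 lower became 47 and 13 with DESeq2, 57 and 70 with limma-voom, 113 and 51 with the score, and 32 and 61 without abemaciclib tumours 3 and 10 (an alternative chosen after seeing the data); library totals alone called 1 lower. Leaving out each tumour in turn gave 0 to 21 higher and 0 to 26 lower over all genes, the upper ends without abemaciclib tumour 10, and 0 members throughout; without abemaciclib tumour 2 it was 19 and 11. The median of the members became -0.19 with library totals alone. On the score, library totals alone called 1175 positive and 162 negative genes, with 30 and 2 members; Smarcd2, Ezh1, Kdm2b and Kat2b kept a negative slope but lost their call. Leaving out each tumour gave 11 to 16 positive and 10 to 15 negative members, and leaving out abemaciclib tumours 3 and 10 left 7 negative. The 12 members examined by correlation kept their sign under every setting. Same-numbered tumours did not clearly deviate together (r from -0.43 to 0.45 over 11 pairs, 5 over 0.1, and 2 abemaciclib tumours closest to their own number). These values were not tested and cannot settle whether the numbers pair the samples. The replicate block was fitted on the 11 pairs alone, without abemaciclib tumour 12, and adds terms for the replicate numbers. With that block the score called 158 and 137 genes and 6 and 0 members, and between the groups it called 0 members. How much of this change came from fewer tumours and more terms was not tested.

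Among the named members, the sign of the group difference turned in these fits. Some of the largest differences were among them. With the score as a covariate the values were Hdac11 -0.23, Kmt2c -0.16, Ezh1 -0.37, Kmt2b -0.028, Hdac4 -0.065, Cbx7 -0.71, Setd3 -0.27, Cbx5 0.011, Cbx3 0.031, Smarcb1 0.026, Prmt1 0.18, Hdac2 0.10, Dnmt3a 0.17, Dnmt3b 0.43, Kat2a 0.15, Kat2b -0.35, Kdm1a 0.19, Setd2 0.028, Smarca4 0.14, Chd4 0.031, Smarcc1 0.38 and Kdm2b -0.30. With a macrophage score the named members that turned were Kmt2c -0.11, Ezh1 -0.31, Hdac9 -0.10, Kmt2b -0.022, Cbx7 -0.19, Setd3 -0.14, Kdm1a 0.090, Setd2 0.014, Smarca4 0.022, Smarcc1 0.045 and Kdm2b -0.071. With library totals alone the values were Ezh1 -0.0025, Kmt2b -0.072, Hdac4 -0.055, Kdm5b -0.068, Prmt2 -0.073, Cbx7 -0.028, Setd3 -0.10, Kat2b -0.083 and Kdm2b -0.13. Limma-voom gave Kdm5b -0.058, Prmt2 -0.045, Hdac3 0.039, Kmt2a 0.046, Setd2 0.036, Smarca4 0.0020, Smarca2 0.0019 and Kdm2b -0.053. Kmt2a and Smarca4 were at 0.0043 and 0.0012 with DESeq2 and at 0.0039 and 0.0011 with RLE factors. Upper-quartile factors gave Kat2b -0.0051 and Kdm2b -0.036, the block Setd3 -0.019 and Kdm2b -0.0052, and no filter Kdm2b -5.9e-04. Without abemaciclib tumours 3 and 10, Kdm5b was at -0.020 and Kmt2a at 0.079. Leaving out each tumour gave ranges that crossed 0 for Kdm5b (-0.015 to 0.11), Prmt2 (-0.091 to 0.088), Cbx7 (-0.0040 to 0.25), Setd3 (-0.014 to 0.10), Kat2b (-0.024 to 0.15), Kmt2a (-0.066 to 0.087), Setd2 (-0.046 to 0.030), Smarca4 (-0.045 to 0.036), Smarcc1 (-0.066 to 0.062) and Kdm2b (-0.049 to 0.054). The cause of these changes was not tested. Depth limits Setdb2, Hdac9, Cbx7 and Dnmt3b most.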
